A study of Mus musculus with 34 samples.

Results

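The genes described are 10 that mark or serve the epithelium of the choroid plexus: Ttr, Clic6, Kcne2, Kl, Folr1, Aqp1, Slc4a5, Kcnj13, Otx2 and Enpp2. They were taken by gene name from the 55385 genes of a count table, and Clic6 and Kcne2 were set beside the other 8 because they lie in the chromosome 16 segment that Dp16 mice carry in an extra copy. Poly-A RNA came from the cortex of 34 mice aged 6 months, 16 female and 18 male. The genotypes were wild-type C57BL/6J, Dp16, 5xFAD, which carries human Alzheimer's disease transgenes driven by Thy1 sequences in neurons, and 5xFAD-Dp16, which carries both lesions. All mice were gavaged once a day for 1 month, with tofacitinib, an inhibitor of Janus kinases, at 15 mg/kg, or with the sham vehicle of 0.5% methylcellulose. The groups held 5 wild-type sham and 5 wild-type tofacitinib mice, 3 and 5 Dp16, 4 and 5 5xFAD, and 3 and 4 5xFAD-Dp16. The duplication was thus present in 15 mice and absent from 19.

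The choroid plexus is a sheet of epithelium in the brain ventricles that secretes cerebrospinal fluid. Its cells pump sodium, potassium, chloride and bicarbonate across their apical membrane, water follows through aquaporins, and carrier proteins are released into the fluid. It is not part of the cerebral cortex, but it lies against the hippocampal edge of the cortical sheet, and transthyretin, the product of Ttr, is among its most abundant messages. Transcripts of a whole tissue piece do not tell whether fewer cells of a type were present or each held less RNA, and the 2 cannot be told apart here.

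Libraries held between 16029841 and 21388650 counted reads. The labels fitted the segment and transgene read-outs: each library's median log2 ratio of segment genes to the wild-type sham mean lay between 0.46 and 0.58 in the 15 carriers and between -0.1 and 0.09 in the 19 non-carriers, and Thy1 lay between 1427 and 2572 CPM (read counts scaled to a common library size) with the transgene and between 823.7 and 951.8 without it. The library labelled 5xFAD tofacitinib 2 stood apart. It had the lowest level of all 34 for the cortical neuron genes Tbr1, Slc17a7, Cux2 and Neurod6, with Tbr1 at 19.9 CPM against at least 89.1 in the others. It had the highest Tcf7l2, a gene of thalamic neurons, at 56.5 CPM against 3.99 to 10.1, and the highest sums for markers of ependyma, meninges, thalamus and mature oligodendrocytes. The duplication differences of Clic6 and Kcne2 and the drug differences of Clic6, Kcne2 and Ttr are given with and without it. The marker lists and the ratio tests are given only with it. So are the fits with a choroid plexus term, apart from some ranges over 1 library left out. Wild-type sham 2 also lay far out on the second principal component.

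Ttr (ENSMUSG00000061808.4, chromosome 18, 20665280 to 20674321, GRCm38) encodes the thyroid hormone and retinol-binding protein carrier of the cerebrospinal fluid. Values are given in order of replicate number, which runs 1, 2, 4, 5 and 6 in 5xFAD tofacitinib and 1, 2 and 4 in 5xFAD-Dp16 sham. In wild-type sham Ttr stood at 213, 196, 33.8, 132 and 9.52 CPM, and in wild-type tofacitinib at 77.6, 408, 16.3, 7.56 and 5.51. In Dp16 sham it stood at 916, 10.1 and 14.7 CPM, and in Dp16 tofacitinib at 42.1, 13.4, 2.28, 37.6 and 26.8. Single libraries set the level of these groups: 1 of 3 Dp16 sham libraries and 1 of 5 wild-type tofacitinib libraries were far above their group. In 5xFAD sham Ttr stood at 6.23, 7.04, 6.85 and 6.86 CPM, and in 5xFAD tofacitinib at 2.24, 1440, 250, 41.3 and 4.96. In 5xFAD-Dp16 sham it stood at 0.894, 2.72 and 42.4 CPM, and in 5xFAD-Dp16 tofacitinib at 1.29, 8.04, 488 and 5.1. The 4 libraries of 5xFAD sham lay close together and below all libraries of wild-type sham and of Dp16 sham. Every other pair of groups overlapped. The share of all genes separated between such groups was not counted.

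**Figure D1:**
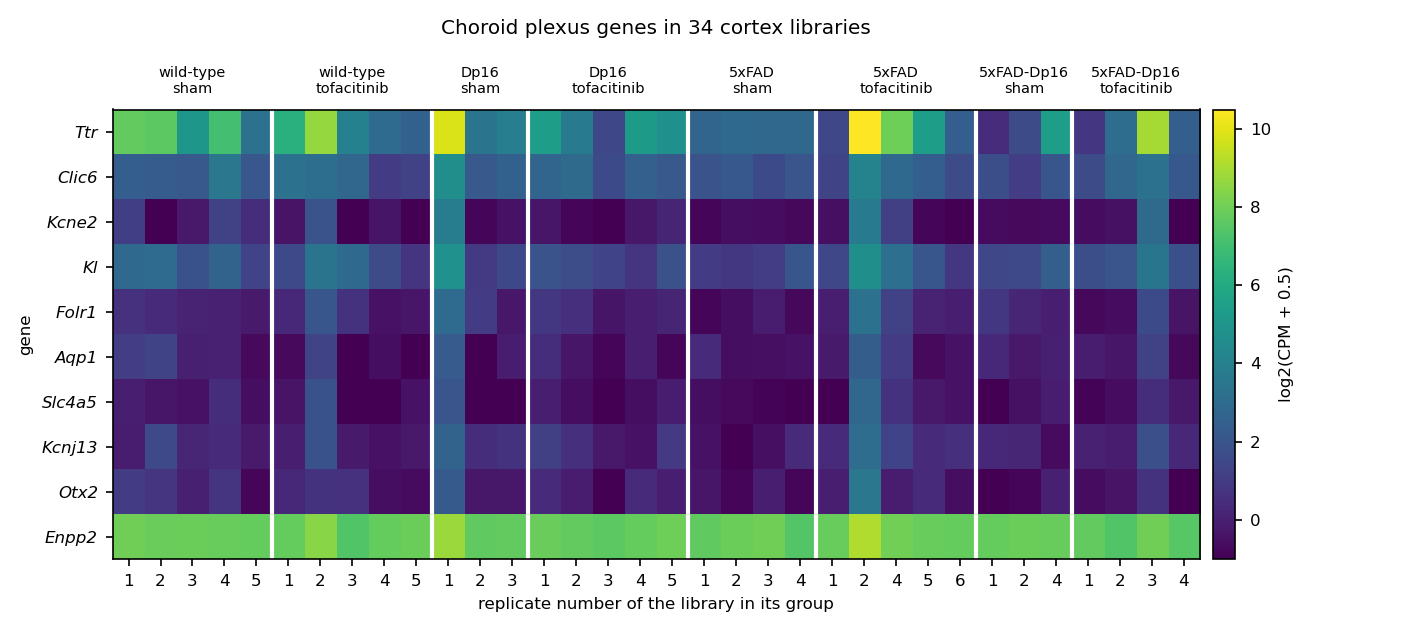
Level of each of the 10 genes (rows) in each of the 34 libraries (columns, by group and replicate number), coloured by log2(CPM + 0.5). Ttr runs from 0.894 to 1440 CPM, and 5xFAD tofacitinib 2, Dp16 sham 1, 5xFAD-Dp16 tofacitinib 3 and wild-type tofacitinib 2 are bright in most rows, while Enpp2 is high in every library.

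Clic6 (ENSMUSG00000022949.9, chromosome 16, 92485736 to 92541243, plus strand) encodes a chloride intracellular channel protein abundant in fluid-secreting epithelia. Its exons share sequence with the transcript 2410124H12Rik on the same strand, so reads there may not all have been counted for Clic6. In wild-type sham it stood at 4.87, 4.58, 4.1, 11.4 and 3.79 CPM, and in wild-type tofacitinib at 9.51, 8.45, 6.5, 1.48 and 1.9. In Dp16 sham it stood at 25.2, 4.16 and 5.44 CPM, and in Dp16 tofacitinib at 6.18, 7.4, 2.52, 5.26 and 4.15. The Dp16 libraries other than sham 1 lay within the range of the 10 wild-type libraries. In 5xFAD sham it stood at 3.29, 3.92, 2.45 and 3.53 CPM, and in 5xFAD tofacitinib at 2.05, 17.2, 7.06, 4.85 and 2.72. In 5xFAD-Dp16 sham it stood at 2.92, 1.62 and 3.67 CPM, and in 5xFAD-Dp16 tofacitinib at 2.54, 6.54, 9.35 and 3.94. No pair of groups that differed only by the duplication was separated. The 5xFAD-Dp16 sham libraries lay below all of wild-type sham and of Dp16 sham, and those of 5xFAD sham below all of Dp16 sham. For these pairs too, the share of all genes separated was not counted.

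Kcne2 (ENSMUSG00000039672.12, chromosome 16, 92292389 to 92298129, plus strand) encodes a small subunit that sets the gating of potassium channels and sits in the apical membrane of choroid plexus cells. In wild-type sham it stood at 1.72, 0, 0.373, 1.8 and 0.919 CPM, and in wild-type tofacitinib at 0.267, 3.39, 0, 0.284 and 0. In Dp16 sham it stood at 13.9, 0.0563 and 0.232 CPM, and in Dp16 tofacitinib at 0.3, 0.0602, 0, 0.347 and 0.643. Most libraries held only a handful of reads of it. In 5xFAD sham it stood at 0.0599, 0.17, 0.147 and 0.0994 CPM, and in 5xFAD tofacitinib at 0.195, 12.3, 1.74, 0.0516 and 0. In 5xFAD-Dp16 sham it stood at 0.141, 0.105 and 0.141 CPM, and in 5xFAD-Dp16 tofacitinib at 0.144, 0.208, 7.28 and 0. The 6 libraries without a read, 2 of them carriers, allow a level of up to 0.151 to 0.191 CPM, the value of 3 counts there, for counting error only.

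The other carriers, pumps and receptors of the epithelium were also low. Per kilobase of gene length, on the authors' RPKM scale, the median over the 34 libraries was 66.7 for Enpp2, 11.9 for Ttr, 1.13 for Clic6 and 0.575 for Kl. It was 0.553 for Kcnj13, 0.346 for Folr1, 0.155 for Otx2, 0.143 for Aqp1, 0.102 for Kcne2 and 0.0405 for Slc4a5. The ranges of each pair of neighbours in that order overlapped. The highest library exceeded the median 103-fold for Ttr and 76.1-fold for Kcne2, which is the widest spread among the 10. Kl, the klotho co-receptor of a phosphate-regulating growth factor, ranged from 1.16 to 27.2 CPM, and Folr1, the receptor that carries folate into the cerebrospinal fluid, from 0.0599 to 9.59. Among the transporters, Aqp1, a water channel, ranged from 0 to 4.7 CPM and Slc4a5, a sodium bicarbonate cotransporter, from 0 to 6.42. Kcnj13, a potassium channel of the inward rectifier family, ranged from 0 to 8.19 CPM. Otx2, the homeobox factor needed to form and maintain the choroid plexus, ranged from 0 to 11.4 CPM. It was at 0 in 3 libraries, all of them carriers. It had 1 read in the non-carriers wild-type sham 5, 5xFAD sham 2 and 5xFAD sham 4, and in the carrier 5xFAD-Dp16 sham 2. The step from 0 to 1 read is within counting error. The highest library was 5xFAD tofacitinib 2 for Ttr, Folr1, Aqp1, Slc4a5, Kcnj13, Otx2 and Enpp2, and Dp16 sham 1 for Clic6, Kcne2 and Kl.

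Enpp2 had by far the highest floor, though not the only one. It encodes autotaxin, the secreted enzyme that makes lysophosphatidic acid, and is also known from oligodendrocytes. It lay between 163 and 552 CPM, and the highest library exceeded the median only 2.47-fold. Its group means ran from 202 ± 41.8 CPM (SD, n = 4) in 5xFAD-Dp16 tofacitinib to 297 ± 144 (SD, n = 5) in 5xFAD tofacitinib. Mature oligodendrocyte genes were abundant in every library, with Mbp between 3450 and 9060 CPM, and their part in the level of Enpp2 was not tested. Clic6 and Kl also kept a floor, at 1.48 and 1.16 CPM, with at least 26 and 19 reads. Their highest libraries exceeded the median 6.07-fold and 9.15-fold. In 5xFAD-Dp16 sham 1, where Ttr was lowest at 0.894 CPM, Clic6 stood at 2.92 CPM and Kl at 2.26. The share of their reads that did not follow Ttr was not tested.

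The duplication was compared between carriers and non-carriers as the mean of 4 differences: Dp16 minus wild-type and 5xFAD-Dp16 minus 5xFAD, each in sham and in tofacitinib. Clic6 and Kcne2 were not called, unlike most tested genes of the segment around them. The mean of the group means of Clic6 was 6.26 CPM in carriers and 5.346 in non-carriers, a log2 difference of 0.02 (SE 0.30, 95% confidence interval -0.59 to 0.63, edgeR adjusted p = 0.985). For Kcne2 these means were 1.759 and 1.185 CPM. The log2 difference of Kcne2, which averages 4 fitted log differences and so does not follow from these 2 means, was 0.04 (SE 0.91, interval -1.81 to 1.89, edgeR adjusted p = 0.992). None of the 10 genes was called at an edgeR adjusted p under 0.05, and none had an unadjusted p under 0.05, while 378 of all 17632 genes tested were called (2.14%). DESeq2 and limma-voom also called none of the 10 in this comparison. Both intervals held 0 as well as the segment's median, so at this spread neither a rise of that size nor its absence could be shown.

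The segment spans chromosome 16 from 75540514 to 97962622 (GRCm38), with 384 genes listed and 106 tested. Of these 106, 104 had a log2 difference above 0 and 70 were called, all higher, which is 66% against 2.14% of all genes. Their median log2 difference was 0.55, a 1.46-fold level, against 0.00 over all genes tested. Clic6 had the third lowest difference of the 106 and Kcne2 the fifth lowest. The tested genes on either side of them moved with the segment in part. Rcan1, an inhibitor of calcineurin that lies between them (92391953 to 92470867), averaged 100.8 CPM in carriers and 67.51 in non-carriers (log2 difference 0.57, SE 0.05, edgeR adjusted p = 1.61e-10). Smim11, next to Kcne2 (92301286 to 92313041), rose by 0.60 (SE 0.12, edgeR adjusted p = 0.00389), and Mrps6, a mitochondrial ribosomal protein gene, by 0.52 (SE 0.10, edgeR adjusted p = 0.00121). Slc5a3, a myo-inositol transporter whose gene overlaps Mrps6 on the same strand, differed by 0.29 (SE 0.09, edgeR adjusted p = 0.081) and Setd4, a methyltransferase gene, by 0.58 (SE 0.18, edgeR adjusted p = 0.107). Runx1, a blood cell transcription factor, differed by 0.23 (SE 0.21, edgeR adjusted p = 0.694). The SEs of Clic6 and Kcne2 were larger than those of all 6 of these neighbours.

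**Figure D2:**
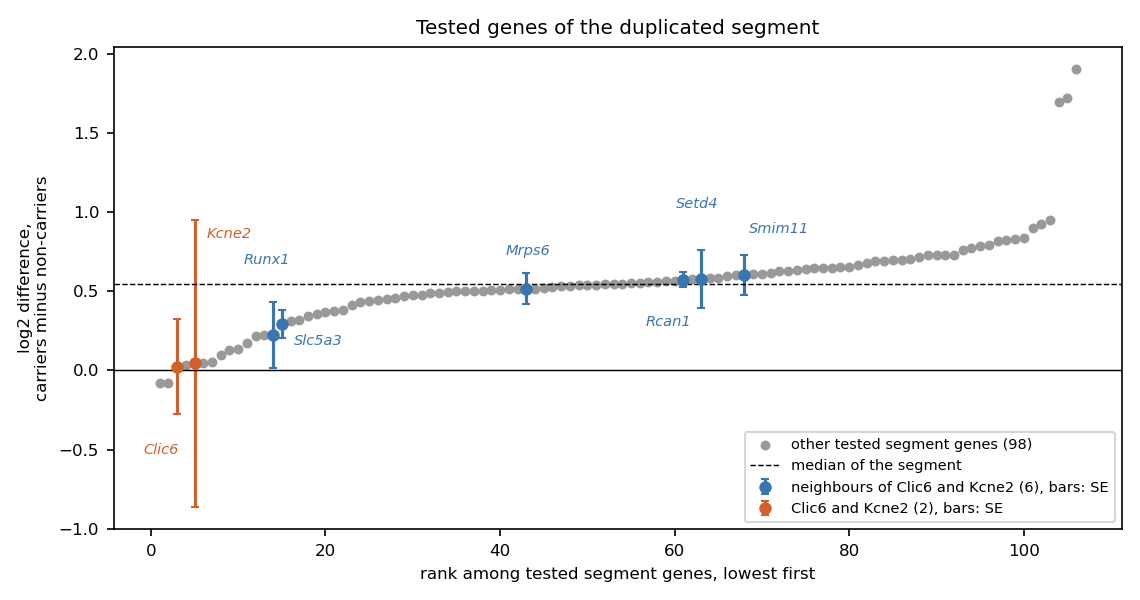
Log2 difference, carriers minus non-carriers, of the 106 tested segment genes (points, ranked from the lowest), with SE bars for Clic6, Kcne2 and their 6 tested neighbours and a dashed line at the segment median of 0.55. Clic6 and Kcne2 lie at 0.02 and 0.04 with long bars, and Rcan1, Smim11, Setd4 and Mrps6 lie near the dashed line.

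The values for Clic6 and Kcne2 moved with single libraries. Without Dp16 sham 1, the carrier with the highest Ttr, the log2 difference was -0.25 for Clic6 (SE 0.29), -1.11 for Kcne2 (SE 0.94) and -1.14 for Ttr (SE 0.80). Without 5xFAD-Dp16 tofacitinib 3 it was -0.12 for Clic6 and -1.29 for Kcne2. Without 5xFAD tofacitinib 2, the non-carrier with the highest Ttr, it was 0.23 for Clic6 (SE 0.28) and 0.72 for Kcne2 (SE 0.86). Leaving out the 4 libraries of highest Ttr together gave -0.09 for Clic6 and -0.78 for Kcne2. None of these passed the threshold.

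The other 8 genes lie outside the segment and give the comparison without a dosage difference. Their log2 differences were 0.01 for Ttr (SE 0.80), -0.07 for Kl (SE 0.39), 0.29 for Folr1 (SE 0.49) and -0.03 for Aqp1 (SE 0.57). They were -0.23 for Slc4a5 (SE 0.75), 0.11 for Kcnj13 (SE 0.45), -0.63 for Otx2 (SE 0.61) and -0.12 for Enpp2 (SE 0.12). Clic6 and Kcne2 thus lay among them, and the interval of each of the 10 included 0. The narrowest was that of Enpp2, from -0.36 to 0.12. Over the 10 genes the median was -0.01, with 5 above 0. Without 5xFAD tofacitinib 2 the median was 0.23, with 8 above 0, and Otx2 moved to -0.028 and Enpp2 to -0.0178. Without Dp16 sham 1 the median was -0.59, with none above 0.

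To read these genes at a given amount of choroid plexus transcript, the fit was repeated with the mean log2(CPM + 0.5) of 24 other choroid plexus genes as a term, none of them in the segment. These summed to between 30.2 and 188 CPM, with 18 of the 24 highest in 5xFAD tofacitinib 2 and 4 highest in Dp16 sham 1. Of the 24, Slc16a8, Lmx1a and Cltrn were at 0 in over 17 libraries, while 12 were at 0 in none. The most abundant, Car12, Slc29a4 and Slc13a4, had Spearman correlations with Ttr of 0.52, 0.10 and 0.10. In that fit 398 genes were called (2.26%), again none of the 10. The SE of Clic6 fell to 0.20, with a log2 difference of -0.04 and an interval of -0.44 to 0.37, below the segment's median of 0.55. With the level of Ttr as the term in place of the list, the difference was 0.27 (SE 0.18, edgeR adjusted p = 0.522). At that SE the segment's median was not excluded, so the placing of Clic6 below it depended on the term used. Kcne2 stood at -0.49 (SE 0.53, interval -1.57 to 0.58) with the list and at 0.30 (SE 0.55) with Ttr. Ttr itself was at -1.14 (SE 0.39, interval -1.94 to -0.34, unadjusted p = 0.00676, edgeR adjusted p = 0.142) with the list. This did not pass the threshold, and over the other settings the adjusted p ran from 0.0502 to 0.306.

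**Figure D3:**
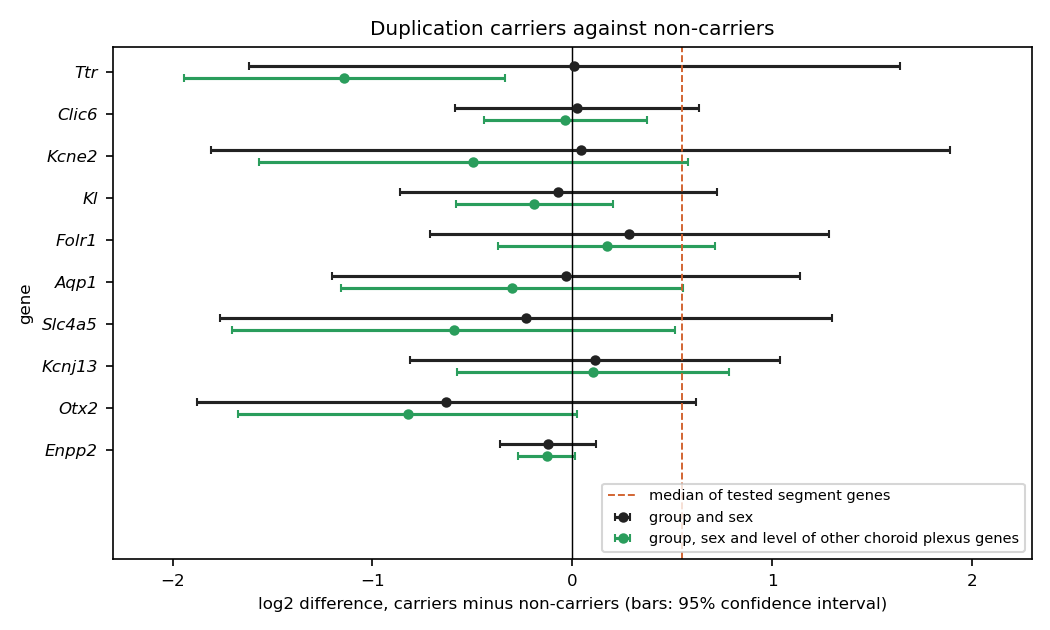
Log2 difference, carriers minus non-carriers, of the 10 genes with 95% confidence intervals, from the fit on group and sex (black) and from the fit with the level of 24 other choroid plexus genes added (green). All black intervals include 0. Of the green ones, that of Ttr does not, and that of Clic6 ends below the dashed line at the segment median of 0.55. The fit with Ttr as the term, which gave 0.27 (SE 0.18) for Clic6, is not shown.

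Ratios were also taken within each library, with 0.5 added to both counts, so that depth still enters where counts are few, as for Kcne2. The log2 ratio of Clic6 to Ttr was higher by 0.80 in carriers than in non-carriers among sham mice, with means of -1.74 ± 2.37 (SD, n = 6) and -2.55 ± 1.89 (SD, n = 9, two-sided exact permutation p = 0.466). Among tofacitinib mice the difference was 1.34 (9 against 10, exact permutation p = 0.182). For Kcne2 to Ttr it was 0.81 in sham (exact permutation p = 0.558) and 0.98 in tofacitinib (exact permutation p = 0.213). Adjusted over the 4 tests, p lay between 0.426 and 0.558, so no ratio differed beyond the spread between mice. The permutations had no term for sex or for the 5xFAD transgene, so that spread includes differences between the sexes and between these genotypes. The ratio of Clic6 to Ttr was lowest where Ttr was highest. It ran from 11.9 counts per 1000 Ttr counts in 5xFAD tofacitinib 2 (Ttr 1440 CPM) to 3260 in 5xFAD-Dp16 sham 1 (Ttr 0.894 CPM). It thus depends on the level of Ttr, and at these SDs a difference of the segment's median of 0.55 could not be shown. With the summed 24 other genes as the denominator, the differences in sham were -0.16 for Clic6 and -0.15 for Kcne2, and in tofacitinib 0.10 for Clic6 and -0.27 for Kcne2. That sum of counts is weighted to its most abundant genes, Car12, Slc29a4 and Slc13a4. Their rho with Ttr was 0.52, 0.10 and 0.10, so the sum follows Ttr only in part.

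The ratio of Kcne2 to Ttr can be read with little counting error only where Ttr is high. In 8 libraries Ttr exceeded 100 CPM, a limit set after the values were seen, and 2 of them were carriers, so no test was made. Kcne2 stood at 15.2 counts per 1000 Ttr counts in Dp16 sham 1 (95% exact interval 13.3 to 17.2, counting error only) and at 14.9 in 5xFAD-Dp16 tofacitinib 3 (12.5 to 17.6). In the non-carriers it stood at 8.57 in 5xFAD tofacitinib 2 (7.58 to 9.65), 8.31 in wild-type tofacitinib 2, 8.08 in wild-type sham 1 and 6.97 in 5xFAD tofacitinib 4. It stood at 13.7 in wild-type sham 4 (9.2 to 19.6) and at 0 of 3077 Ttr counts in wild-type sham 2 (0 to 1.2). Both carriers were above all 6 non-carriers, and the interval of wild-type sham 4 overlapped theirs. The order did not extend below the limit. Of the 4 carriers with the most Ttr there, 5xFAD-Dp16 sham 4 stood at 3.33 (0.685 to 9.75, Ttr 42.4 CPM), wholly below both carriers over the limit, Dp16 tofacitinib 1 at 7.13 (2.31 to 16.7) and Dp16 tofacitinib 4 at 9.22 (3.37 to 20.2). The fourth, Dp16 tofacitinib 5, stood at 24 (11.9 to 43.3). The 3 non-carriers with the most Ttr there, wild-type tofacitinib 1, 5xFAD tofacitinib 5 and wild-type sham 3, stood at 3.44, 1.25 and 11. Clic6 did not show this order: it stood at 27.5 and 19.1 counts per 1000 Ttr counts in the carriers and between 11.9 and 86.6 in the non-carriers. Folr1, which lies outside the segment, stood at 8.26 and 5.11 in the carriers and between 4.1 and 9.06 in the non-carriers. In wild-type sham 2 Kcne2 was missing, and the other genes went both ways. Aqp1 and Kcnj13 were the highest of the 8 libraries, at 10.4 and 12.3 counts per 1000 Ttr counts. Slc4a5 was the lowest of the 8, at 1.62, and Folr1 stood at 4.22, close to its lowest value of 4.1.

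**Figure D4:**
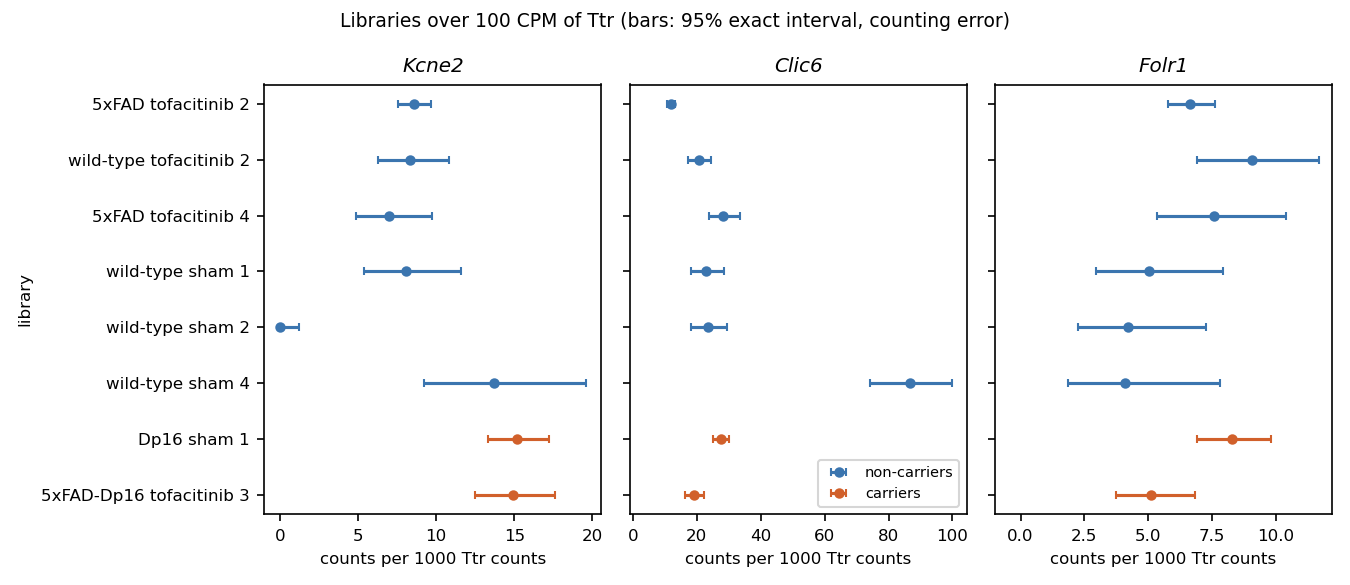
Counts of Kcne2, Clic6 and Folr1 per 1000 Ttr counts (x axis) in the 8 libraries over 100 CPM of Ttr, non-carriers in blue and carriers in orange, with 95% exact intervals for counting error. Kcne2 is at 15.2 and 14.9 in the carriers and between 0 and 13.7 in the non-carriers, while the groups overlap for Clic6 and Folr1.

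Each of the other 9 genes rose and fell with Ttr across libraries, some closely and some loosely. Over the 34 libraries, whose Ttr levels formed a continuous range, the correlation of log2(CPM + 0.5) with Ttr was r = 0.82 and rho = 0.83 for Clic6 and r = 0.81 and rho = 0.63 for Kcne2. Otx2 had the closest relation (r = 0.84, rho = 0.85), followed by Slc4a5 (r = 0.83, rho = 0.75) and Kl (r = 0.82, rho = 0.72). For Folr1 the values were 0.76 and 0.65, for Aqp1 0.76 and 0.53, for Kcnj13 0.70 and 0.48 and for Enpp2 0.69 and 0.53. Each r had a permutation p of 1e-05, the smallest that 100000 resamples can give, and adjusted over the 9 genes the permutation p of rho lay between 2.25e-05 and 0.00427. Without the 2 libraries farthest from the median of Ttr, 5xFAD tofacitinib 2 and Dp16 sham 1, r lay between 0.52 (Enpp2) and 0.83 (Otx2), with 0.74 for Clic6 and 0.72 for Kcne2. On values centred within each group, r was 0.83 for Clic6 and 0.81 for Kcne2. Without the 4 libraries of highest Ttr, rho was 0.76 for Clic6, 0.79 for Otx2 and 0.46 for Kcne2, but 0.32 for Aqp1, 0.33 for Enpp2 and 0.25 for Kcnj13, which no longer passed. These libraries share the range of depth given above.

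**Figure D5:**
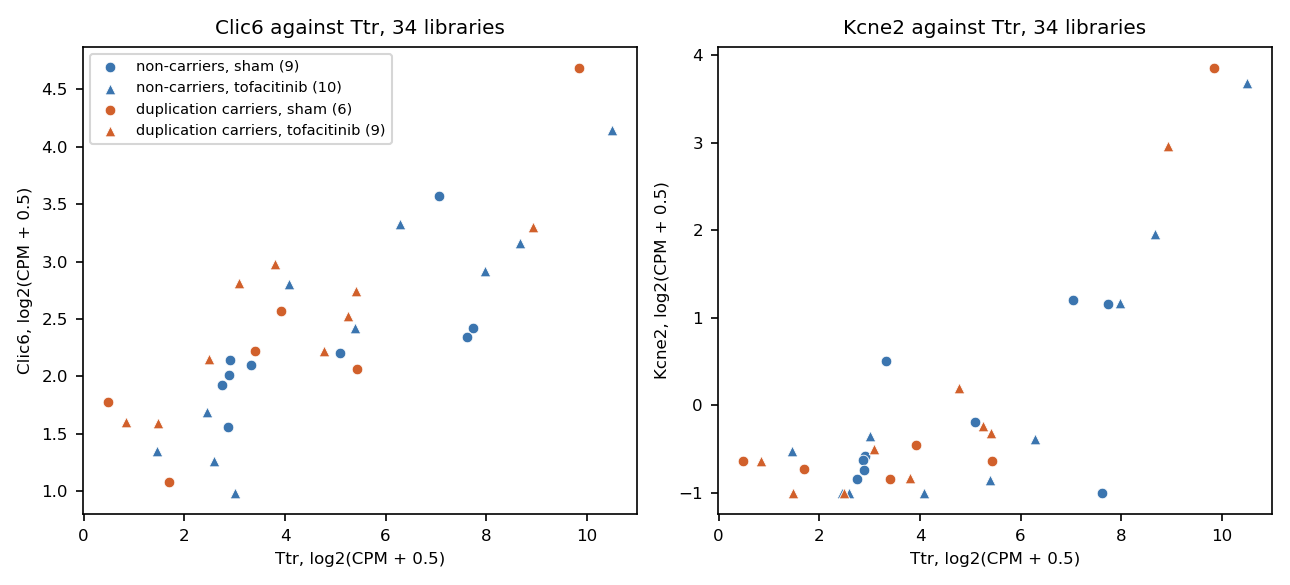
Clic6 (left) and Kcne2 (right) against Ttr in the 34 libraries, all as log2(CPM + 0.5), with carriers in orange, non-carriers in blue, sham as circles and tofacitinib as triangles. Clic6 climbs over the whole range of Ttr, whereas Kcne2 stays low in most libraries and is highest in those of highest Ttr, and wild-type sham 2 is on the floor with Ttr at 196 CPM.

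Among all 17632 genes tested, Otx2 ranked first and Clic6 second by rho with Ttr, and Ttr ranked first for both Clic6 and Kcne2. With Ttr, Slc4a5, Kl, Folr1 and Kcne2 ranked 4, 6, 14 and 23, and Aqp1, Enpp2 and Kcnj13 ranked 225, 230 and 581. After Ttr, the ranks with Clic6 ran from 18 for Otx2 to 5458 for Enpp2 (rho = 0.20), with Kcne2 at 950 (0.54). With Kcne2 they ran from 5 for Enpp2 to 422 for Kcnj13. Outside the 10, the genes most like Ttr were Tmem72 (rho = 0.78), Drc7 (0.74), Plgrkt (0.69), Mfrp (0.66) and 2610008E11Rik (0.66), over 34 libraries. Those most like Clic6 were Cd59a (0.75), Tasp1 (0.73), Gpatch11 (0.73), Fam118a (0.73) and Tmem72 (0.72). Those most like Kcne2 were Mfrp (0.62), Upk1a (0.60), Col8a2 (0.60), Slc16a8 (0.57) and Gm10362 (0.57). Tmem72, Mfrp and Slc16a8 belong to the list of other choroid plexus genes. Gpatch11 ranged only from 23 to 37.6 CPM, and on values centred within each group its rho with Clic6 was 0.47.

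Otx2 is the transcription factor among the 10 genes. The 250 bases before their RefSeq start sites (GRCm38.p6) were searched on both strands for TAATCC, the core bound by Otx-type homeodomains. The search covered 6 of the 10 genes, with 10 windows in all, and did not include Ttr, Clic6, Folr1 or Enpp2. Several of the windows were those of Otx2 itself. Of the 10 windows, 1 held the motif, against 2054 of 32851 windows of all genes (6.25%). A part of Otx2 in the covariation with Ttr was not tested. Shown are the window of Kcne2 (chr16:92292139-92292388, plus strand), which ends at its annotated start and lies in the duplicated segment, that of its fellow potassium channel gene Kcnj13 (chr1:87394730-87394979, minus strand), and the Otx2 window with the match (chr14:48665110-48665359, minus strand). All run 5′ to 3′ on the gene's strand, and capitals mark the motif, which reads GGATTA in the Otx2 window because it lies on the other strand.
Kcne2: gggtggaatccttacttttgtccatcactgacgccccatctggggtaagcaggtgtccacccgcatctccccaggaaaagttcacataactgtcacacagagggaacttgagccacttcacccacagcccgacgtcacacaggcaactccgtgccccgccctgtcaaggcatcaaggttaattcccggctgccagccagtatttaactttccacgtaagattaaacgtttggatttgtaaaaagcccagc
Kcnj13: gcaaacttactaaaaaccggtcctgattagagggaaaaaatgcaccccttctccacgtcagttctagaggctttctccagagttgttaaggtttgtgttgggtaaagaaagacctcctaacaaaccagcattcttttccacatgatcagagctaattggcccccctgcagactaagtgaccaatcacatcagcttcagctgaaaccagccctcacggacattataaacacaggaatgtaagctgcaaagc
Otx2: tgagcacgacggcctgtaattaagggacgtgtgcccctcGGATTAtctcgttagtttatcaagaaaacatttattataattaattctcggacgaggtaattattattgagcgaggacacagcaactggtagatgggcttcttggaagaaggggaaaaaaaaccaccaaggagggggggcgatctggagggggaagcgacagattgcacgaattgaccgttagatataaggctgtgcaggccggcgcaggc
The match is a description of letters and says nothing of binding, and the windows of Kcne2 and Kcnj13 do not hold these letters.

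The transgene was compared between 5xFAD carriers and non-carriers in the same way. Clic6 averaged 4.599 CPM with the transgene and 7.006 without it, a log2 difference of -0.56 (SE 0.29, edgeR adjusted p = 0.278), and Ttr differed by -0.63 (SE 0.78). None of the 10 was called, and none had an unadjusted p under 0.05, against 74 genes called of 17632 (0.42%). Of the 10, 9 were below 0, with a median of -0.47 against 0.00 over all genes. Without Dp16 sham 1, 6 were above 0 and the median was 0.16, and without 5xFAD tofacitinib 2 none was above 0 and the median was -0.8.

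The drug was compared within and over genotypes. Averaged over the 4 genotypes, the log2 difference between tofacitinib and sham was 1.17 for Ttr (SE 0.78), 0.19 for Clic6 (SE 0.29) and 1.00 for Kcne2 (SE 0.89), and no edgeR adjusted p among the 10 was below 0.935. Without 5xFAD tofacitinib 2 these differences were 0.67, 0.04 and 0.33. The percentage of genes called was 0 in each of the 5 drug comparisons, with 592 genes at an unadjusted p under 0.05 in the average. Within 5xFAD all 10 genes were higher with the drug and 7 of them had an unadjusted p under 0.05, but no adjusted p was below 0.32. Of all genes tested, 2617 (14.8%) had such an unadjusted p there. Markers of some other tissues were higher too, with 12 of 12 mature oligodendrocyte genes above 0 (median 0.27), 11 of 12 ependymal genes (0.35) and 10 of 12 meningeal genes (0.53). Blood genes had 4 of 5 above 0 (0.24), thalamic genes 6 of 10 (0.08), hippocampal genes 6 of 12 (-0.02) and striatal genes 1 of 12 (-0.21). None of them was called. These lists were not recomputed without 5xFAD tofacitinib 2, and their part in the result was not tested. Folr1 averaged 2.61 ± 3.95 CPM in treated 5xFAD mice (SD, n = 5) against 0.193 ± 0.172 in sham (SD, n = 4), a log2 difference of 3.18 (SE 1.04, unadjusted p = 0.00442, edgeR adjusted p = 0.32). The mean of the treated group came mostly from the 2 libraries at 9.59 and 1.89 CPM. Without 5xFAD tofacitinib 2 the difference of Ttr within 5xFAD fell from 5.11 to 3.47, that of Kcne2 from 4.01 to 2.01, that of Folr1 from 3.18 to 2.11 and that of Clic6 from 0.95 to 0.35, and 3 of the 10 had an unadjusted p under 0.05. By limma-voom Kcnj13 was called in this comparison (log2 difference 2.88, adjusted p = 0.047), but not without 5xFAD tofacitinib 2 (2.72, limma-voom adjusted p = 0.0679), and by DESeq2 none was.

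The drug response was then compared between mice with and without the 5xFAD transgene, a difference of differences whose size cannot be set beside that of a single comparison. All 10 genes were above 0, with a median log2 of 2.84 against 0.00 over all genes, and 9 had an unadjusted p under 0.05 by edgeR and 2 by limma-voom, against 14.5% of all genes by edgeR. Ttr was at 5.91 (SE 1.55, edgeR adjusted p = 0.331), Kcne2 at 6.34 (SE 1.77, edgeR adjusted p = 0.331) and Clic6 at 1.64 (SE 0.58, edgeR adjusted p = 0.331). The percentage of genes called was 0 in this and in the contrast of drug response by duplication, although 2548 and 410 genes had an unadjusted p under 0.05. The values lean on a few libraries, as Dp16 sham 1, 5xFAD tofacitinib 2 and 5xFAD-Dp16 tofacitinib 3 all enter the contrast with a positive sign. Without 5xFAD tofacitinib 2 Ttr was at 5.18, Kcne2 at 5.09 and Clic6 at 1.32. Ttr was at 3.91 without Dp16 sham 1, and without the 4 libraries of highest Ttr at 1.46 (SE 1.20, edgeR adjusted p = 0.649). With the level of the 24 other choroid plexus genes as a term, Ttr was at -0.05 (SE 0.84), Kcne2 at 0.53 (SE 1.20) and Clic6 at 0.34 (SE 0.42). Of that list itself, 20 of 21 tested genes were above 0, with a median of 1.77 and none called. The ependyma, thalamus and mature oligodendrocyte lists had medians of 0.37, 0.06 and 0.02.

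Genotypes were also compared within each treatment, and these comparisons share their control libraries. None of the 10 genes was called in any of the 10 comparisons. In sham the percentage of all genes called was 0.21 for Dp16 minus wild-type, 0.017 for 5xFAD minus wild-type, 0.363 for 5xFAD-Dp16 minus wild-type, 0.102 for 5xFAD-Dp16 minus 5xFAD and 0.00567 for 5xFAD-Dp16 minus Dp16. In tofacitinib it was 0.25, 0.017, 0.306, 0.238 and 0.00567 in the same order. In sham all 10 genes were higher in Dp16 than in wild-type, with a median log2 of 0.87, while in tofacitinib 9 of 10 were lower, with a median of -0.57. Both directions turned with a few libraries: without Dp16 sham 1, 2 of the 10 were above 0 in sham and the median was -1.37, and without the 4 libraries of highest Ttr, 7 were above 0 in tofacitinib and the median was 0.12. In the sham comparison none of 12 striatal genes was above 0 (median -0.86), against 12 of 12 hippocampal genes (0.46) and 11 of 12 meningeal genes (0.41), and their part in the result was not tested. With all libraries Clic6 stood at 0.85 (SE 0.59) in the first and at -0.14 (SE 0.53) in the second. Kcne2 stood at 1.72 (SE 1.42) and -1.26 (SE 1.57), and Ttr at 1.06 (SE 1.57) and -1.58 (SE 1.40).

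Ttr did not overlap between 5xFAD sham and wild-type sham. The 5xFAD mean was 6.74 ± 0.355 CPM (SD, n = 4) and the wild-type mean 117 ± 92.4 (SD, n = 5), a log2 difference of -3.69 (SE 1.59, unadjusted p = 0.0439, edgeR adjusted p = 0.188). Of all genes tested, 4377 (24.8%) had an unadjusted p under 0.05 in this comparison. The share of all genes that did not overlap between these groups was not counted, so the separation of Ttr is a description only. Leaving out the 4 libraries of highest Ttr, none of which is in these 2 groups, gave -4.13 with an edgeR adjusted p of 0.0493, but these libraries were chosen by the level of Ttr itself, and the spread is estimated over all groups, so this value is no support for the difference. All 10 genes were below 0 in this comparison, with a median of -1.32.

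Over all 19 comparisons and 190 tests of the 10 genes, 26 had an unadjusted p under 0.05 and none an edgeR adjusted p under 0.05. DESeq2 called none and limma-voom called 1.

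Markers of neighbouring tissues were read in the comparison of carriers with non-carriers. Of the 21 tested genes of the other choroid plexus list none was called, 13 were above 0, and the median was 0.07. The ependyma list had 12 genes tested, 1 called lower and a median of -0.06, and its summed level ran from 98.9 to 170 CPM. The meninges list had 11 of 12 genes above 0, a median of 0.27 and 1 called, Slc6a20a, an amino acid transporter of the meninges, which rose by 0.55 (SE 0.12, edgeR adjusted p = 0.00987). Its summed level ran from 64.6 to 125 CPM in carriers and from 54.3 to 152 in non-carriers. The striatum list had none of 12 called, none of 12 above 0 and a median of -0.59. Oligodendrocyte genes had 2 of 12 called lower, hippocampal genes 1 of 12 called higher, and thalamic genes 1 of 10 called lower. Blood genes had none of 5 called. Of all genes tested, 2.14% were called. The library 5xFAD tofacitinib 2, a non-carrier, had the highest sums of the ependyma, meninges, thalamus and oligodendrocyte lists. These list results were not recomputed without it. The part of the lists in the values of Clic6, Kcne2 and Ttr was not tested.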

How the data were processed

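Cortex RNA was extracted with TRIzol and poly-A libraries were made with a strand-specific kit and read as paired ends of 150 bases, per the labels' protocols. The count values are whole numbers per gene and mouse that the authors deposited. The submitters' processing notes name bcl2fastq, FastQC 0.11.5, HISAT2 2.1.0, SAMtools 1.5, HTSeq 0.6.1 and build GRCm38, without their roles, and whether counting used strand is not given in the sources used here. RPKM values, also deposited by the authors, were used for levels per length only. Gene positions came from the GENCODE annotation of GRCm38 (release M21).

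The counts were analysed in R 4.3.3 with edgeR 4.0.16. Low genes were removed by filterByExpr with group as its argument, which left 17632 genes, the 10 members among them. Libraries were scaled by TMM, and 1 quasi-likelihood fit held all 34 libraries with terms for group and sex. F-tests were two-sided with Benjamini-Hochberg adjustment over all genes tested in each of 19 comparisons. The SE came from the fit's weights and its posterior spread. A second fit added the mean log2(CPM + 0.5) of 24 listed genes. Ratios used counts plus 0.5, with exact permutation tests. Correlations used 100000 permutations. The edgeR steps were tested on simulated data. Alternatives were DESeq2 1.42.0, limma-voom (limma 3.58.1), other scalings, filters and terms, other denominators, and each library left out. 3 more were added after the values were seen: without the 4 libraries of highest Ttr, without wild-type sham 2 and 5xFAD tofacitinib 2, and limma-voom without 5xFAD tofacitinib 2.

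The members and lists were chosen with earlier results of these data known. Named are the 10 members, up to 3 genes of each list by mean level, the 5 genes most like Ttr, Clic6 and Kcne2, and the tested neighbours of Clic6 and Kcne2. Tbr1, Slc17a7, Cux2, Neurod6, Tcf7l2 and Thy1 were read as checks of the labels, chosen outside that rule, as were the list genes at 0 and single list genes called. In 5xFAD tofacitinib 5 of the 6 mice the series text counts were analysed here, and in 5xFAD-Dp16 sham 3 of 4. Depth lay between 16029841 and 21388650 counts a library.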

Additional observations from a re-analysis of the deposited data

Results flagged for a closer look

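Within the groups of 4 or 5 mice, 22 of 60 pairs of gene and group had 1 library separated from the rest by more than Dixon's critical value. That value flags about 1 in 20 for independent, normally spread values. CPM was used without logs, its spread is skewed upwards, and the genes covary with Ttr, so 22 of 60 cannot be set against that rate. The flags came from 7 libraries. In 5xFAD tofacitinib 2 these were Ttr at 1440 CPM, Enpp2 at 552, Kcne2 at 12.3, Otx2 at 11.4, Folr1 at 9.59, Kcnj13 at 8.19 and Slc4a5 at 6.42. The next highest mouse of that group had Ttr at 250 and Kcne2 at 1.74. This is the library with the lowest Tbr1, Slc17a7, Cux2 and Neurod6 of all 34.

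In wild-type tofacitinib 2 Ttr stood at 408 CPM, Folr1 at 3.7, Kcne2 at 3.39, Kcnj13 at 3.27, Slc4a5 at 3.21 and Aqp1 at 2.1. In 5xFAD-Dp16 tofacitinib 3 Ttr stood at 488 CPM, Kl at 10.4, Kcne2 at 7.28, Kcnj13 at 2.98 and Folr1 at 2.5. In these 3 libraries several of the genes were separated from the group at once, each time upwards. Single genes stood apart in 4 other libraries: Clic6 at 11.4 CPM in wild-type sham 4, Kcnj13 at 2.42 in wild-type sham 2, Kl at 3.68 in 5xFAD sham 4 and Aqp1 at 0.778 in 5xFAD sham 1. Groups of 3 mice were not examined, so Dp16 sham 1 could not appear here.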

How the results depend on the processing

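Values below are log2 differences, carriers minus non-carriers, unless said otherwise, and no alternative brought one of the 10 genes past the threshold in that comparison. The cause of each change was not tested, except where given. Of 17632 genes, 378 were called in the main fit, against 1587 by limma-voom, 672 without a filter on low counts, 669 without wild-type sham 2 and 5xFAD tofacitinib 2, 206 with a replicate block and 263 to 541 with 1 library left out. With the choroid plexus term 398 were called, against 1509 by limma-voom, 262 without the 4 libraries of highest Ttr and 218 with the replicate block. Same-numbered libraries of different groups did not deviate together (median correlation 0.0144 over 98 pairs, and 7 of 34 libraries correlated best with their own number). With the block Slc4a5 was at 0.1214 and Clic6, with the choroid plexus term, at 0.0111, both of the opposite sign. Directions also reversed for Aqp1 under DESeq2 (0.0888). Under limma-voom they reversed for Folr1 (-0.1137), Kcne2 (-0.2733), Ttr (-0.8129) and, with the choroid plexus term, Clic6 (0.0726). Under limma-voom without 5xFAD tofacitinib 2, added after the values were seen, 1719 genes were called, and Folr1 (-0.0376), Kcne2 (-0.1187), Ttr (-0.6084) and Kl (0.0599) reversed. Without a sex term Kl was at 0.0001 and Ttr at -0.2326. With Ttr as the term Aqp1 was at 0.3398, Kl at 0.1796, Slc4a5 at 0.2714, Clic6 at 0.2689 and Kcne2 at 0.2973, the last 2 reversed only against the fit with the choroid plexus term. Without wild-type sham 2 and 5xFAD tofacitinib 2 Aqp1 was at 0.2314, Kl at 0.2882, Otx2 at 0.0026 and Slc4a5 at 0.1626. Without the 4 libraries of highest Ttr Clic6 was at -0.0949, Folr1 at -0.0455, Kcne2 at -0.7765, Ttr at -1.5365 and, with the choroid plexus term, Aqp1 at 0.0027. There the rho with Ttr was 0.3181 for Aqp1, 0.3268 for Enpp2 and 0.2498 for Kcnj13, no longer past the threshold. With the 24 other choroid plexus genes as the denominator, the ratios in sham differed by -0.1579 for Clic6 and -0.1465 for Kcne2, and in tofacitinib by -0.2671 for Kcne2. With Folr1, Kl, Kcnj13, Slc4a5 and Otx2 as the denominator they differed in sham by -0.4235 and -0.412.

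Of all values recomputed with 1 library left out, 1215 kept their direction and side of the threshold and 77 reversed direction; under the other alternatives 305 did not change in this sense. With 1 library left out, the range was -0.6091 to 0.5165 for Aqp1, -0.2458 to 0.2328 for Clic6, -0.4519 to 0.6851 for Folr1, -1.2928 to 0.7165 for Kcne2, -0.2841 to 0.4374 for Kcnj13, -0.613 to 0.2288 for Kl, -2.0055 to 0.3344 for Slc4a5 and -1.3032 to 0.3697 for Ttr. For Otx2 it was -1.4744 to -0.028 and for Enpp2 -0.2106 to -0.0178, without a reversal. With the choroid plexus term it was -0.6755 to 0.1308 for Aqp1, -0.0937 to 0.0898 for Clic6, -0.0732 to 0.3912 for Folr1 and -0.0382 to 0.3645 for Kcnj13. Without a filter on low counts the members were called 12 times in the 2 interactions, 2 times for 5xFAD carriers, 26 times in the 10 genotype comparisons and 17 times in the 5 drug comparisons, in a fit whose prior degrees of freedom were infinite, so that it used no spread of the gene's own. Limma-voom called 1 in the drug comparisons, and leaving out the 4 libraries of highest Ttr called 1 in the genotype comparisons. Depth limits Kcne2, Slc4a5, Aqp1 and Otx2 most, each at 0 in 3 or more libraries.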
